A study of Homo sapiens with 7 samples.

Results

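CTCF peaks were examined at 9 cancer-associated genes whose promoters are known for G-rich tracts that fold into G-quadruplexes (G4s) in vitro: the receptor tyrosine kinase genes KIT, RET and PDGFRB, the growth factor gene PDGFA, the signalling genes SRC and HRAS, the cyclin gene CCND1, the survival gene BCL2 and the hypoxia regulator gene HIF1A. They are 9 of the 20098 protein coding genes annotated on the autosomes and the X chromosome, and they were taken as a named set, by a rule that uses no measured value, although earlier results of these data were known when the set was chosen. A peak was assigned to a gene when it lay within 5 kb of the gene start or elsewhere in the gene, in the GRCh37 (hg19) build with GENCODE annotation. The gene start is the 5′ end of the whole gene record, and where the Ensembl canonical transcript begins further on, that second position is given as well. The cells were K562, an established human erythroleukemia line that grows in suspension. Control cells were untreated, and the others received 10 μM pyridostatin (PDS), a small molecule that binds and stabilizes folded G4s, for 24 h. Chromatin was immunoprecipitated with an antibody to CTCF or with IgG and sequenced, with 2 CTCF samples per condition, 1 IgG sample for the control and 2 IgG samples for PDS. A further control IgG replicate that the study shows was not analysed here, and the control list does not say whether its folds, and so the percentiles below, rest on that replicate too. The authors called peaks once per condition, jointly on both replicates over IgG. The control list holds 33094 peaks and the PDS list 32917. Because each condition has a single list with no read counts, the sequencing depth is unknown, no SD or test between conditions can be given, and every comparison below is a description. All samples come from 1 cell line, and peaks say nothing of the expression of these genes.

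A G4 is a DNA fold in which 4 runs of guanines stack into planar tetrads, with the bases between the runs looped out. Such G-rich tracts are common just upstream of the starts of growth-promoting genes, and many of them have been studied as targets of small molecules. CTCF is a zinc finger protein that binds GC-rich DNA through a degenerate consensus, anchors chromatin loops, and is often found at promoters within CpG islands. The question of the study was whether G4s take part in bringing CTCF to such places. A G4 motif was taken here as at least 4 runs of 3 or more G whose loops span 1 to 7 nt, both strands being searched, and a tract with more runs was counted as 1 motif. A stretch of 7 or more G can hold 2 such runs with a G as the loop, so some motifs show only 3 separate blocks of G. Each of the 9 genes had such a motif within 1 kb of its start, as did 65.7% of all coding genes. The number was 6 for CCND1, 5 for RET, 4 for PDGFA, 3 for PDGFRB, and 2 each for KIT, HRAS, BCL2, HIF1A and SRC, and 26.9% of coding genes had 3 or more. Of these 28 motifs, 12 lay on the strand of their gene and 16 on the other, and 14 were centred upstream of the start.

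The motif nearest upstream of the start, or of the canonical start where that lies inside the gene record, is shown for 8 of the genes, because the position of the CTCF peaks is read against these tracts. For KIT both motifs of the promoter are shown. Sequences were read 5′ to 3′ from GRCh37 on the strand given, with stretches of 3 or more G in capitals and the other bases in lower case.
KIT, chr4:55524002-55524021, plus strand, centred 112 bp before the canonical start: GGGcGGGcgcgaGGGaGGGG
KIT, chr4:55524052-55524073, plus strand, centred 62 bp before the canonical start: GGGaGGGcgctGGGaggaGGGG
RET, chr10:43572433-43572482, minus strand, centred 54 bp before the start: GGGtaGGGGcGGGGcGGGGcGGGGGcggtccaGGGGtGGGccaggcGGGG
PDGFRB, chr5:149535510-149535540, plus strand, centred 90 bp before the start: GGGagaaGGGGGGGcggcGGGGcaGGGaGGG
PDGFA, chr7:559529-559572, minus strand, centred 68 bp before the canonical start: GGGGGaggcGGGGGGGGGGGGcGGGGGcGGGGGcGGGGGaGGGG
SRC, chr20:35974451-35974473, minus strand, centred 81 bp before the canonical start: GGGGaGGGGaagaggaGGGaGGG
CCND1, chr11:69455784-69455830, minus strand, centred 117 bp before the start: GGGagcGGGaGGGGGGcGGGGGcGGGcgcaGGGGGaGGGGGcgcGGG
BCL2, chr18:60987351-60987385, plus strand, centred 7 bp before the start: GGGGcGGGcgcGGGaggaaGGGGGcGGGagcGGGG
HIF1A, chr14:62162154-62162182, minus strand, centred 63 bp before the start: GGGcgcgcGGGGaGGGGagaGGGGGcGGG
None of these 9 tracts overlapped a CTCF peak of either list. The tracts nearest to a peak edge among them were that of CCND1, with a gap of 50 bp to a control peak and 70 bp to a PDS peak, and that of BCL2, with 155 bp and 65 bp.

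CTCF was found near the starts of most of these genes in both conditions. A peak lay within 5 kb of the start in 6 of the 9 genes in control cells and in 7 of the 9 in PDS-treated cells, beside 35.9% and 34.2% of all coding genes. Among the 50% of each list with the smallest p-values, 2 genes in control and 5 in PDS-treated cells had one, beside 23.3% and 23.9% of coding genes. KIT, RET, PDGFA, HRAS, CCND1 and BCL2 had one in both lists. PDGFRB had one in the PDS list alone, and there the difference was one of peak edges. SRC had peaks inside the gene but none near its start, and HIF1A had none. Within 1 kb of the start, 3 genes of each list had a peak (PDGFA, CCND1 and BCL2), beside 22.3% (control) and 21.0% (PDS) of coding genes. Measured from the canonical start, 6 and 7 genes again had a peak within 5 kb (background 36.1% and 34.5%), and KIT and HRAS joined those with a peak within 1 kb, which made 5 in each list (background 22.9% and 21.6%). All 9 have a promoter motif, and of the coding genes with one 40.9% had a control peak and 39.3% a PDS peak within 5 kb, against 26.3% and 24.4% of those without. Counting peaks elsewhere in the gene as well, 8 of the 9 had a peak in each list, beside 57.9% and 54.4% of coding genes. RET and BCL2 had the most, with 4 peaks in each list.

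**Figure D1:**
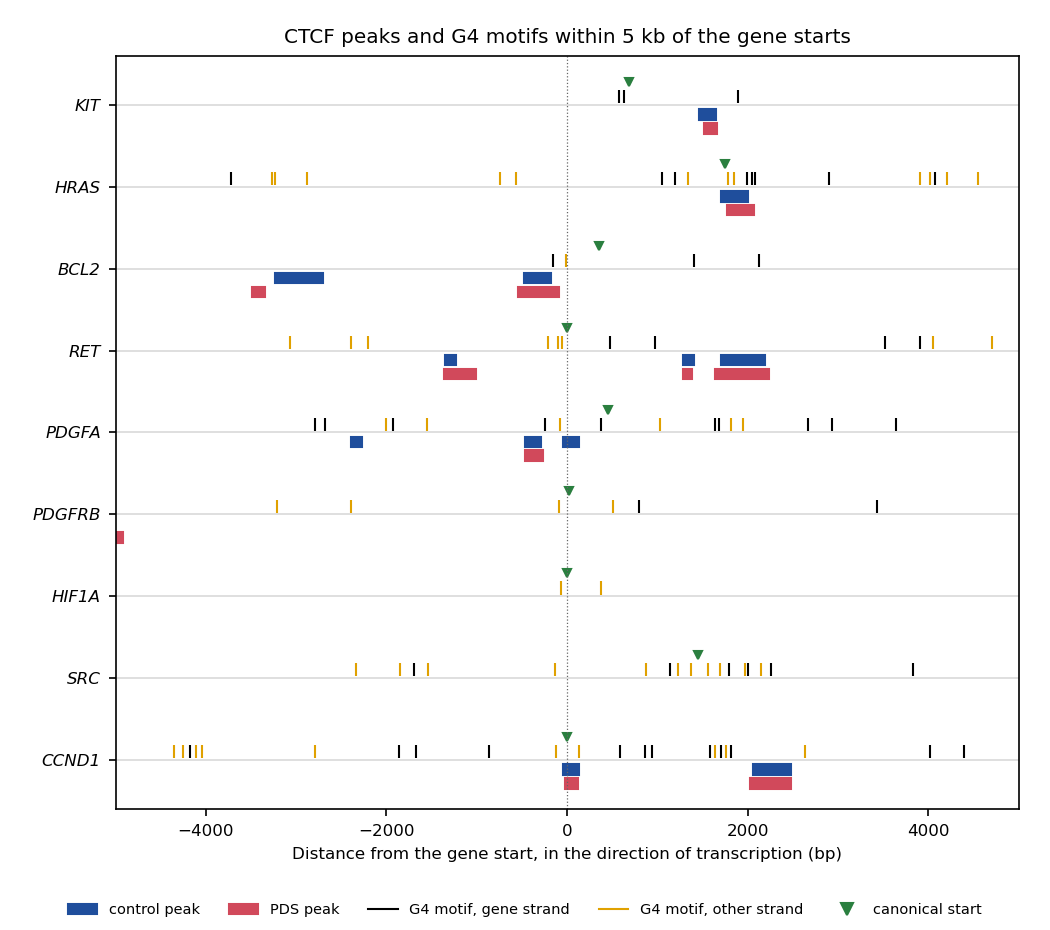
Map of the 9 genes from 5 kb before to 5 kb after the gene start (dotted line), in bp in the direction of transcription, with control peaks in blue, PDS peaks in red, G4 motifs as ticks by strand and the canonical start as a green triangle. Of the peaks within 5 kb, 9 of 12 control and 10 of 11 PDS peaks overlap across the lists, while PDGFA has 3 control peaks against 1 PDS peak and BCL2 has an unshared peak in each list; only the near edge of the PDGFRB peak, which begins 4916 bp upstream, is inside the map.

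In all, 19 control peaks and 18 PDS peaks belonged to these genes, 12 and 11 of them within 5 kb of a start and 7 of each list elsewhere in a gene. Most were found in both conditions. By an overlap of at least 1 bp, 16 of the 19 control peaks and 17 of the 18 PDS peaks had a counterpart, beside 78.0% and 78.6% of all peaks of the lists. All those elsewhere in a gene were shared, and the peaks within 5 kb of a start were shared in 9 of 12 cases in control and 10 of 11 in PDS-treated cells, beside 83.2% and 82.5% of the peaks near coding gene starts. The fold enrichment is the authors' ratio of CTCF over IgG, and each fold is relative to the IgG of its own condition. Levels were therefore not compared between the lists, and each peak is given by its percentile, the percent of its own list with a lower fold. The median percentile of the peaks of these genes was 38.4 for control and 57.2 for PDS, and 8 of 19 and 10 of 18 were above the median fold of their list. By p-value, where a smaller p ranks higher, the medians were 34.6 and 56.5. The peaks ranged widely in fold, from 5.79 at RET to 108.42 at CCND1 in control cells and from 7.54 to 39.83, both at CCND1, in PDS-treated cells. They were rich in G and C, with a median GC content of 67.8% (control) and 62.6% (PDS), beside 51.0% and 53.0% over all peaks. Most of them lie near a gene start, and the GC content of all peaks near coding gene starts was not computed.

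Among the receptor genes, KIT encodes the receptor of stem cell factor and is a classical oncogene of mast cells and blood progenitors. It lies on chromosome 4 from 55523434 to 55606949 on the plus strand and had a single narrow peak in each list, in the first intron of the canonical transcript. The control peak ran from 55524901 to 55525080 with a fold of 26.63 (percentile 50.3), and the PDS peak from 55524951 to 55525100 with a fold of 15.68 (percentile 43.4). Both were thus close to the middle of their list by fold, but by p-value they were low, at percentiles 13.7 and 19.6. The peaks lay after the canonical start and the 2 promoter motifs before it, though both motifs are inside the gene record: the control peak was centred 866 bp after the canonical start and its near edge lay 827 bp beyond the nearer motif, a gap that was 877 bp for the PDS peak. Other KIT transcripts begin nearby, and the control peak covered the start of one of them at 55524915. No other peak of either list lay in the 83516 bp of the gene.

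RET, the receptor of the glial cell line-derived ligands, had peaks on both sides of its G-rich promoter but none on it. It lies on chromosome 10 from 43572512 to 43625799 on the plus strand, and GC made up 69.6% of the 2 kb around its start. Upstream, a control peak of 120 bp from 43571161 to 43571280 had a fold of 5.79, the lowest among the peaks of these genes and at percentile 1.0 of the list. Its PDS counterpart, from 43571151 to 43571500, was 350 bp wide with a fold of 15.83 at percentile 44.3. By p-value this pair hardly differed, at percentiles 15.6 and 19.5. After the start, the lists shared a narrow peak from 43573801, ending at 43573920 (fold 17.28) in control cells and at 43573900 (fold 11.20) in PDS-treated cells. A broader pair followed in the same intron, from 43574221 to 43574700 with a fold of 23.20 in control cells and from 43574151 to 43574750 with a fold of 14.86 in PDS-treated cells. That pair was near percentile 38 by fold in both lists (38.4 and 38.1) and among the strongest by p-value (93.5 and 91.2). The 5 promoter motifs of RET lay between the upstream peaks and the intronic ones. The smallest gap to a peak, that to the narrow intronic pair, was 303 bp in either list.

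Further into RET, intron 4 held the peak with the smallest p-value among those of these genes in each list. It ran from 43600861 to 43601340 in control cells (fold 46.60, rank 276 of the list by p) and from 43600901 to 43601450 in PDS-treated cells (fold 17.75, rank 622 by p). By fold it stood at percentile 85.7 in control and 55.9 in PDS-treated cells. Both versions held a G4 motif and an exact match to the CTCF consensus, the only control peak of these genes with one. The consensus used is the degenerate ChIP-exo consensus of 15 letters given in the introduction of the study. The sequences are shown because the match and the motif lie 33 bases apart in this peak, with capitals at the G runs of the motif and at the restricted positions of the consensus.
RET intron 4, G4 motif, chr10:43601145-43601170, plus strand: GGGGccgtGGGagagtGGGcgtGGGG
RET intron 4, CTCF consensus, chr10:43601097-43601111, minus strand: cCAgcAGGtGGCGGT
PDGFRB upstream peak, CTCF consensus, chr5:149541354-149541368, plus strand: cCAgcAGGtGGCGGC
A match to a consensus is a description of the sequence and not a measured contact.

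PDGFRB, the receptor of PDGF B chains on mesenchymal cells, lies on chromosome 5 from 149493402 to 149535435 on the minus strand. Its start is poor in CpG, with 36 CpG in the 2 kb around it and among the 9 genes only SRC, with 31, had fewer. A broad peak upstream was the widest among those of these genes, 1400 bp from 149540351 to 149541750 in PDS-treated cells, with a fold of 29.47 at percentile 90.2. It held 1 G4 motif and the exact consensus match shown above, with 77 bases between them. In control cells a peak of 1140 bp from 149540581 to 149541720 had a fold of 52.58 at percentile 90.0 and overlapped it over its whole length. The PDS peak began 4916 bp from the gene start and the control peak 5146 bp from it, so the 5 kb limit took in one and left out the other, although the site was occupied in both lists. Inside the gene, a pair over exon 10 ran from 149509081 to 149510040 in control cells (fold 49.32, percentile 87.8) and from 149509301 to 149510050 in PDS-treated cells (fold 24.16, percentile 80.1). A pair over exon 16 ran from 149501521 to 149502120 (fold 15.86, percentile 19.2) and from 149501551 to 149502100 (fold 18.31, percentile 58.6). By p-value the order was the other way for both pairs. The exon 10 pair stood at percentiles 75.8 (control) and 83.6 (PDS), and the exon 16 pair at 91.9 and 74.8. Neither exonic pair held a G4 motif, and the 3 motifs at the PDGFRB start were at least 5040 bp from a control peak and 4810 bp from a PDS peak.

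PDGFA encodes the A chain of platelet-derived growth factor, and a long G-rich tract, shown above, precedes its canonical start. The gene lies on chromosome 7 from 536895 to 559933 on the minus strand, and GC made up 74.5% of the 2 kb around its start, the most of the 9 genes. Control cells had 3 narrow peaks within 5 kb of the start and PDS-treated cells 1. The shared pair ran from 560221 to 560400 in control cells (fold 28.91, percentile 57.3) and from 560201 to 560400 in PDS-treated cells (fold 13.04, percentile 27.3), upstream of the start and within the divergent noncoding gene PDGFA-DT. By p-value the order was the other way, with percentile 15.2 for the control peak and 52.1 for the PDS peak. The 2 other control peaks had no counterpart. The one from 562201 to 562320 had a fold of 14.96 (percentile 16.8) and was 1800 bp from the nearest PDS peak. The one from 559801 to 559980 covered the gene start itself, with a fold of 10.03 (percentile 7.8), and was 220 bp from the nearest PDS peak. Both were near the end of the control list by p-value, at percentiles 2.0 and 6.9, and the lack of a called peak is no measurement of absent CTCF. None of the 3 control peaks overlapped a motif. The shared pair ended next to the tract shown here, with a gap of 23 bp in control cells and 3 bp in PDS-treated cells.
PDGFA, chr7:560148-560197, minus strand, centred 240 bp before the gene start: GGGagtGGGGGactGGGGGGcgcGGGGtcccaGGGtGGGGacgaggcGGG

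SRC encodes the founding cytoplasmic tyrosine kinase of its family. It lies on chromosome 20 from 35973088 to 36034453 on the plus strand, and its canonical transcript begins at 35974543, within a cluster of 11 motifs. Despite this density of motifs, the nearest peak to the gene start was 39993 bp away in control cells and 40013 bp away in PDS-treated cells. That peak, in intron 4, was strong in both lists. It ran from 36013081 to 36013680 in control cells with a fold of 53.84 (percentile 90.7) and from 36013101 to 36013650 in PDS-treated cells with a fold of 34.74 (percentile 95.0). By p-value it stood at percentiles 97.4 and 95.1. It held the motif shown here, and it lay 355 bp (control) and 375 bp (PDS) after the start of a shorter SRC transcript.
SRC intron 4, chr20:36013185-36013213, plus strand: GGGGcagctGGGtcgctcGGGGaacGGGG
A narrower pair in intron 5 ran from 36020941 to 36021120 in control cells (fold 48.29, percentile 87.0) and from 36020801 to 36021100 in PDS-treated cells (fold 19.50, percentile 64.1), with no motif inside. By p-value it stood lower, at percentiles 34.2 and 34.7. The nearest motif was 6 bp from the control peak and 26 bp from the PDS peak. Both gaps are smaller than the position steps of the lists, 60 bp (control) and 50 bp (PDS).

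HRAS, a small GTPase that relays signals from growth factor receptors, had the peaks with the most G4 motifs. The gene lies on chromosome 11 from 532242 to 537321 on the minus strand. The canonical transcript begins at 535576, which is 1745 bp inside the gene record, and the peaks sit there. The control peak ran from 535321 to 535620, covered the canonical start, and held 3 motifs, with a fold of 20.14 at percentile 29.7. The PDS peak ran from 535251 to 535550, ended 26 bp short of the canonical start, and held 4 motifs, with a fold of 22.32 at percentile 74.8. By p-value the pair stood at percentiles 34.6 and 44.9. The GC content of these peaks, 85.3% and 85.7%, was the highest among those of the 9 genes in each list. The motifs are shown because no other peak of the set held more than 1. The upper pair lies in the untranslated first exon, on the strand opposite to the gene, and the lower pair in the first intron of the canonical transcript, on the strand of the gene.
HRAS, chr11:535532-535554, plus strand, in the control peak and partly in the PDS peak: GGGttgcGGGcgcaGGGcacGGG
HRAS, chr11:535463-535483, plus strand, in both peaks: GGGGcGGGGcGGGGGcGGGGG
HRAS, chr11:535320-535344, minus strand, in the PDS peak and partly in the control peak: GGGccGGGGGcgcGGGGccggcGGG
HRAS, chr11:535262-535291, minus strand, in the PDS peak and 29 bp beyond the control peak: GGGtGGGtGGGGccGGGcGGGGcccgcGGG
Since the motifs within 1 kb of the start of the gene record are others, HRAS did not count among the genes with a promoter motif in a peak by that start, but did by the canonical start. The same HRAS peak also lay within 5 kb of the start of LRRC56, the neighbouring gene.

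CCND1 encodes cyclin D1, which drives cells from G1 into S phase. It lies on chromosome 11 from 69455924 to 69469242 on the plus strand. It was the only one of the 9 genes with a peak over the start of its gene record in both lists. PDGFA had one in the control list alone. Counted in each list by itself, 9.13% (control) and 8.11% (PDS) of coding genes had one. By the canonical start, CCND1 and HRAS had such a peak in control cells, beside 9.17% of coding genes. In PDS-treated cells only CCND1 had one, beside 7.78%. The peak at the start was narrow, from 69455881 to 69456060 in control cells (fold 28.09, percentile 54.8) and from 69455901 to 69456050 in PDS-treated cells (fold 7.54, percentile 5.2). By p-value the order was the other way, with percentile 19.2 for the control peak and 45.8 for the PDS peak. Its edge touched a motif in the untranslated part of exon 1, so CCND1 was the only gene of the set with a promoter motif in a control peak, beside 12.8% of the coding genes with such a motif. That motif lay only partly inside the peaks, and the longer tract before the start lay outside them.
CCND1 exon 1, chr11:69456043-69456065, minus strand, centred 130 bp after the start: GGGcagctGGGGaGGGctgtGGG
A stronger peak followed over exon 2 and intron 2, centred 2266 bp (control) and 2252 bp (PDS) after the start, with no motif inside and 140 bp to the nearest. It ran from 69457981 to 69458400 in control cells with a fold of 108.42, rank 171 of 33094 and percentile 99.5. In PDS-treated cells it ran from 69457951 to 69458400 with a fold of 39.83, rank 876 of 32917 and percentile 97.3. This was the highest fold among the peaks of these genes in either list.

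BCL2, the inhibitor of apoptosis, lies on chromosome 18 from 60790579 to 60987361 on the minus strand. At its promoter the 2 lists differed in whether a G4 motif was counted. The control peak ran from 60987541 to 60987840 with a fold of 25.25 (percentile 45.8), and the PDS peak from 60987451 to 60987900 with a fold of 18.33 (percentile 58.7). The PDS peak contained the control peak and was 450 bp wide against 300 bp. By p-value it stood at percentile 85.1 and the control peak at 44.0, a difference of 41.1 points and the largest among the 16 pairs. A motif of 33 nt lay wholly inside the PDS peak, and the control peak ended 9 bp before it. The junction is shown on the minus strand, with the part covered by the control peak in capitals. The PDS peak covers the whole stretch.
BCL2, chr18:60987499-60987560, minus strand: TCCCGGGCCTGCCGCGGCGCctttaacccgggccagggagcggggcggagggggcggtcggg
BCL2, the motif at its 3′ end, chr18:60987499-60987531, minus strand, centred 154 bp before the start: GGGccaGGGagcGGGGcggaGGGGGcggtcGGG
The positions of the control list move in steps of 60 bp and those of the PDS list in steps of 50 bp, so a gap of 9 bp is smaller than 1 step of either list.

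Further upstream of BCL2, each list had a peak without a counterpart, and the pair missed each other by 100 bp. The control peak of 540 bp ran from 60990061 to 60990600 (fold 21.02, percentile 31.8) and the PDS peak of 150 bp from 60990701 to 60990850 (fold 12.58, percentile 25.2). This PDS peak was the only one among the 18 with no overlap in control cells. Deep in intron 2, a pair ran from 60822601 to 60823020 in control cells (fold 16.90, percentile 22.0) and from 60822651 to 60823200 in PDS-treated cells (fold 15.05, percentile 39.3). The PDS peak reached the motif shown here, which was 105 bp beyond the end of the control peak.
BCL2 intron 2, chr18:60823126-60823163, minus strand: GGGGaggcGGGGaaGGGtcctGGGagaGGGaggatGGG
A last pair in the same intron ran from 60798361 to 60798720 (fold 11.95, percentile 10.9) and from 60798351 to 60798550 (fold 20.60, percentile 68.7), with the nearest motif 4780 bp (control) and 4770 bp (PDS) away. All 3 shared BCL2 pairs ranked higher in the PDS list, by fold and by p-value. Over all peaks with a single counterpart, 51.4% ranked higher there by fold and 56.3% by p-value.

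HIF1A, the gene of the oxygen-regulated subunit of hypoxia-inducible factor, was the exception. It lies on chromosome 14 from 62162231 to 62214977 on the plus strand and had 2 motifs within 1 kb of its start but no peak of either list in the gene or within 5 kb of the start, as was the case for 39.9% of coding genes. The nearest control peak was 142070 bp downstream, from 62304301 to 62304900, and had a PDS counterpart. The nearest PDS peak was 135581 bp upstream, a peak of 100 bp from 62026551 to 62026650 with no control counterpart.

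**Figure D2:**
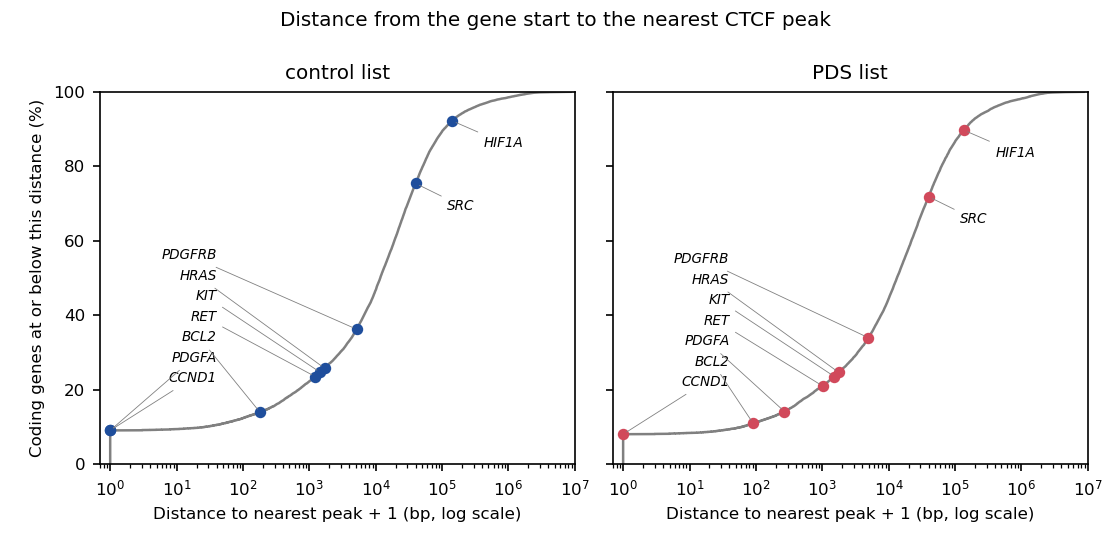
Distance in bp (plus 1, log scale) from the gene start to the nearest CTCF peak in each list, with the cumulative percent of all 20098 coding genes as a grey curve and the 9 genes as points on it. CCND1 and, in the control list, PDGFA sit at a distance of 0, whereas SRC (39993 bp in control cells) and HIF1A (142070 bp) are the farthest.

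Across the set, few promoter motifs lay in a CTCF peak. Of the 28 motifs within 1 kb of a gene start, 1 lay in a control peak (CCND1) and 2 in a PDS peak (CCND1 and BCL2). By gene, this was 1 of 9 (control) and 2 of 9 (PDS), beside 12.8% and 11.6% of the 13195 coding genes with such a motif. By the canonical start, HRAS was added in both lists, which gave 2 of 9 and 3 of 9, beside 12.9% and 11.7%. Among the coding genes that have both a motif and a peak within 1 kb of the canonical start, the motif lay in a peak in 49.0% and 47.1%. For the set this was 2 of 5 genes in control cells (HRAS and CCND1, not KIT, PDGFA or BCL2) and 3 of 5 in PDS-treated cells, with BCL2. A motif lay within 1 kb of the canonical start of all 9 genes and of 68.9% of coding genes. Gaps were measured for the motifs within 1 kb of the start of the gene record only. The smallest gap between such a promoter motif and a peak was below 30 bp for PDGFA, CCND1 and BCL2, and 303 bp for RET, in both lists. For KIT, HRAS and PDGFRB it lay between 827 bp and 5040 bp, although the HRAS peaks hold motifs within 1 kb of its canonical start. The median over the 9 genes was 827 bp in control and 877 bp in PDS-treated cells, beside 8625 bp and 9638 bp over all coding genes with a promoter motif. The lower quartiles of those genes were 586 bp and 741 bp.

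**Figure D3:**
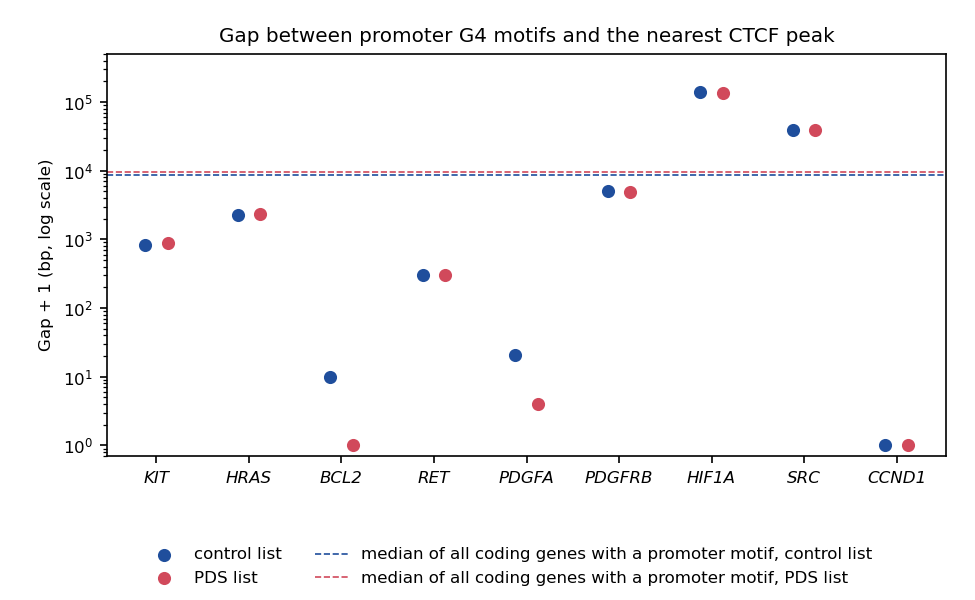
Smallest gap in bp (plus 1, log scale) between a G4 motif within 1 kb of the gene start and a CTCF peak, for each gene in the control list (blue) and the PDS list (red), with the medians of all coding genes with such a motif as dashed lines. The gap is 0 for CCND1 in both lists and for BCL2 in the PDS list only, and 7 of the 9 genes lie below both medians.

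Counting motifs anywhere in a peak, 4 of the 19 control peaks and 7 of the 18 PDS peaks of these genes overlapped one, beside 16.1% and 17.2% of all peaks. Of those within 5 kb of a start, 2 of 12 control and 4 of 11 PDS peaks held a motif, beside 29.7% and 28.7% of the peaks that near to a coding gene start. The 4 control peaks were those at HRAS, RET intron 4, SRC intron 4 and the CCND1 start, and their PDS counterparts held a motif as well. The 3 others in the PDS list were the BCL2 promoter peak, the BCL2 intron 2 peak and the PDGFRB upstream peak. At both BCL2 sites the motif lay 9 bp and 105 bp beyond the control peak, and at PDGFRB the control peak held the motif too but lay outside the 5 kb limit. The difference between 4 and 7 thus came from peak edges at sites occupied in both lists. Within the central 200 bp of each peak the numbers were 4 (control) and 3 (PDS), so the order of the lists turned.

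The CTCF consensus was matched exactly in 1 control peak and 2 PDS peaks of these genes, beside 17.3% and 14.4% of all peaks. The PDGFRB match that makes the difference also lay inside the control peak there, which the 5 kb limit left out. With 1 mismatch allowed, it was found in 10 of 19 and 13 of 18, beside 54.3% and 46.2%. The peaks at KIT, at the CCND1 start, at the BCL2 promoter and in SRC intron 5, and the narrow one in RET intron 1, had no match with 1 mismatch in either list. Of the 4 motif-bearing sites assigned to these genes in both lists, those at HRAS and in SRC intron 4 had a match with 1 mismatch. RET intron 4 had an exact match and the CCND1 start none. The PDGFRB upstream site also held a motif and an exact match in both lists, but its control peak lay outside the 5 kb limit.

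By fold, the ranks of the shared peaks moved in both directions. Of the 16 overlapping pairs, 7 had a higher percentile by fold in the PDS list and 9 a lower one, and by p-value 11 were higher and 5 lower. Over all 24633 peaks with a single counterpart, 51.4% were higher in the PDS list by fold and 56.3% by p-value. The direction by fold and by p-value was opposite in 8 of the 16 pairs. The largest shifts by fold were a gain of 57.8 points for the BCL2 pair near 60798361 and a loss of 49.6 points for the CCND1 start, followed by gains of 45.1 points at HRAS and 43.4 points upstream of RET. The CCND1 start gained 26.6 points by p-value, the opposite of its direction by fold. The median size of the shift was 20.1 points by fold, beside 19.7 over all pairs, and 8.9 points by p-value, beside 10.8. The PDS peak was the wider in 8 pairs and the control peak in 7, beside 49.6% and 46.9% of all pairs.

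**Figure D4:**
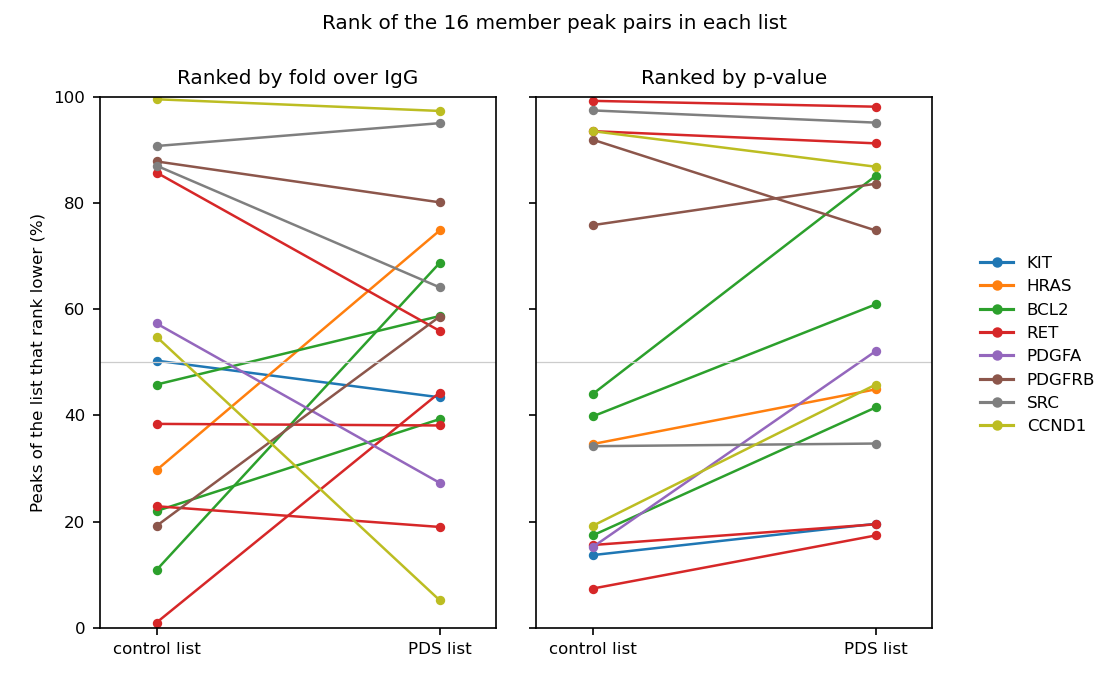
Percentile of the 16 overlapping peak pairs in the control and the PDS list, as the percent of the list that ranks lower by fold over IgG (left) or by p-value (right), with a line for each pair coloured by gene. Lines cross in both directions by fold, with BCL2 and HRAS rising and the CCND1 start falling, whereas by p-value the steepest line is the BCL2 promoter, from 44.0 to 85.1.

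For comparison, the same counts were made for 7 other genes with a reported promoter G4 (MYC, VEGFA, TERT, MYB, RB1, KDR and INS), all of which had a promoter motif. A peak lay within 5 kb of the start in 4 of them in each list (MYC, VEGFA, MYB and INS), against 6 and 7 of the 9. Of all coding genes with a promoter motif, 40.9% (control) and 39.3% (PDS) had one. A promoter motif lay in a peak at MYC and VEGFA in both lists, beside 12.8% (control) and 11.6% (PDS) of the coding genes with such a motif. TERT and KDR had no peak in either list, so HIF1A was not the only promoter G4 gene without a called peak. Among 23 family relatives of the 9 genes, 18 had a promoter motif, beside 65.7% of coding genes. A peak within 5 kb was found in 8 (control) and 9 (PDS) of the 23, beside 35.9% and 34.2% of coding genes. Of the 23 relatives only BCL2L1, a survival gene related to BCL2, had a promoter motif in a peak, and only in control cells. NRAS, PDGFB, PDGFC, PDGFD, BCL2A1 and HIF3A had no peak in either list. CCND3, unlike CCND1, had no control peak within 5 kb of its start, the nearest being 5735 bp away, and 2 PDS peaks there, whereas CCND2, like CCND1, had a peak near its start in both lists, 197 bp away in control and 237 bp away in PDS-treated cells. The relatives had 45 control and 51 PDS peaks, of which 7 and 12 had no counterpart. Over all peaks of the lists, 78.0% (control) and 78.6% (PDS) had a counterpart.

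For each gene with peaks within 5 kb of its start in both lists, the most alike coding gene was the one with the same number of such peaks in each list and the smallest summed difference in the fold percentile of its strongest peak, over these 2 lists. For KIT this was BPNT1 (a sum of 1.4 points), for BCL2 CPNE3 (1.86 points), for PDGFA CSTF3 (2.17 points) and for CCND1 POLR3E (1.02 points). For RET, with 3 peaks in each list, the nearest of 140 candidates was GABRQ, at 12.17 points. For HRAS it was LRRC56, at 0.0 points, because both genes were assigned the same peak.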

How the data were processed

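The 7 ChIP-seq samples of K562 cells were 2 of CTCF and 1 of IgG without treatment, and 2 of each after 24 h in 10 μM PDS. Per the submitters' processing notes and the methods, the authors aligned reads to hg19 with Bowtie2 2.2.3, removed duplicates and poorly mapped reads with SAMtools, and ran PePr once per condition over its pair of CTCF replicates, giving 1 list each; deepTools 2.0 is also named. The labels describe single-end reads of 50 bp and the methods paired-end libraries. A peak score, deposited by the authors as their caller wrote it, was not used. The fold enrichment, a ratio over the IgG of the same condition, was computed by the authors and ranked peaks within a list. The p-value of each peak, computed by the authors with PePr, gave a second ranking. The largest p-value in either list was 1e-05, far below the cutoff that the methods state, so the lists hold no peak above that value. Read depth and replicate values are not given in the lists, so no test or error was computed.

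Genes came from GENCODE 44 lifted to GRCh37, the build of the lists, and sequences from GRCh37. In each list 24 peaks were off the reference chromosomes and entered no motif count. Motifs were searched on both strands (361584 in the genome). Lists were compared by an overlap of at least 1 bp. All 9 genes are named. Of the comparison genes, those with a promoter motif in a peak or with no peak are named, and CCND2 and CCND3 were added after their values were seen. One comparison gene is not reported here. The most alike gene follows the stated rule. The members, comparison lists and alternatives were chosen with earlier results of these data known, and the canonical start was added as an alternative after the positions of the peaks were seen. The motif search, consensus search and overlap were tested on simulated data, where 200 of 200 motifs, 200 of 200 consensus sites and 1000 of 1000 overlaps were found and 0 of 200 tracts with longer loops were taken for motifs. The tools were samtools 1.23.1 and Python 3.11.15 with pyfaidx 0.9.0.4, numpy 2.4.6, pandas 2.3.3 and, for plots, matplotlib 3.10.9.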

Additional observations from a re-analysis of the deposited data

How the results depend on the processing

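Of 51 values under alternatives, 35 stayed as reported or, for a count, within 1.5 times it, and 16 moved. Where no construction is named, the cause was not tested. Keeping the 50% of each list with the smallest p-values left 6 control and 10 PDS peaks of these genes, of which 6 and 7 were shared, and 2 genes with a control peak and 5 with a PDS peak within 5 kb of the start, fewer by construction. A window of 1 kb left 3 genes in either list. Peaks with a G4 motif numbered 9 in control cells with loops of 1 to 12 nt, beside 10 in the PDS list, which stayed within 1.5 times. They numbered 18 (control) and 16 (PDS) with runs of 2 or more G, and 3 (PDS) in the central 200 bp. The CTCF consensus with 1 mismatch was in 10 and 13 peaks. By p-value, the median percentile of shared peaks was 37.2 in place of 48 by fold (control) and 60.9 in place of 58.6 (PDS). By the canonical start, 2 genes had a promoter motif in a control peak. Windows of 2 and 10 kb, all transcript starts, merging of close peaks and stricter overlaps moved no count by over 1.5 times. No paired analysis was possible because the files used here are peak lists, 1 per condition, without values per replicate, and with them no replicate could be left out, although each condition has 2 CTCF samples. Values of single replicates were not analysed here. Unknown depth and position steps of 60 bp (control) and 50 bp (PDS) limit what peak edges and peaks called in 1 list show.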

Other observations

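Beyond the 5 kb limit, HRAS and PDGFA lay between CTCF peaks of high fold percentile in control cells. Not all genes were flanked so. The nearest control peaks outside BCL2 stood at percentiles 48.7 and 29.3, and those outside RET at 31.8 and 61.9. HRAS was flanked by a peak 17560 bp upstream of its start in control cells (fold 75.82, percentile 97.4) and one 18141 bp downstream of it (fold 77.72, percentile 97.7). In PDS-treated cells the upstream counterpart stood at percentile 16.9 by fold and the downstream one at 85.6. Beyond the 5 kb window and the gene, the nearest control peaks of PDGFA lay 116088 bp upstream (percentile 91.2) and 186913 bp downstream (percentile 91.3) of the start, and their PDS counterparts stood at percentiles 50.7 and 24.0. Both genes were picked for high control percentiles, so lower PDS percentiles are partly built into that choice. Other flanking peaks moved either way by fold. The one downstream of SRC stood at 94.2 (control) and 20.0 (PDS), the one downstream of HIF1A at 43.7 and 89.9. Ranks by p-value are not given for these flanking peaks. Both peaks flanking PDGFA and both flanking HRAS held G4 motifs in each list, beside 16.1% (control) and 17.2% (PDS) of all peaks. The peaks flanking RET, SRC and HIF1A held none in either list. CCND1 had peaks shared by both lists 196184 bp upstream (control percentile 95.9, PDS percentile 94.2) and 28877 bp downstream of its start (control percentile 62.3, PDS percentile 96.5), without a motif. These folds have the same limit as those above, being relative to the IgG of their own condition. No test was made, because the lists hold no values per replicate.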
